A study of Mus musculus with 30 samples.

Results

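Kidney and pancreas of mice with intact tumour suppressor genes were compared after the same induction of reprogramming. All mice were of the C57BL/6 strain and were i4F, with a cassette that expresses Oct4 (gene Pou5f1), Sox2, Klf4 and Myc when doxycycline is given, here at 0.2 mg/ml in drinking water for 7 days. The comparison used 5 i4F kidney libraries and 5 i4F pancreas libraries, chosen by their labels out of the 30 libraries of 6 groups. A second set of 5 kidney and 5 pancreas libraries, from i4F mice that also lacked Ink4a/Arf (the Cdkn2a locus), was used only to see whether the tissue difference recurred. The labels give neither sex nor age, name no cell type in which the cassette is active, and include no library from uninduced mice, so a tissue difference here is that of 2 induced organs and not an effect of induction. Bulk RNA cannot tell fewer cells of a type from less RNA per cell, and this holds for every tissue marker below.

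The kidney filters blood in glomeruli, whose podocytes hold back protein. The filtrate then passes the proximal tubule, which takes back sugar, phosphate and amino acids and secretes organic ions, the loop of Henle, the distal tubule and the collecting duct, where principal cells move water and intercalated cells move acid. The pancreas consists mostly of acinar cells, which make and secrete digestive enzymes, with ducts that add bicarbonate and islets that release hormones. Tubule cells live largely on mitochondrial oxidation, and acinar cells carry one of the heaviest loads of protein secretion known in the body.

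Gene levels were deposited as FPKM, fragments per transcript length and library size, in 1 table for each tissue; since the tables may have been normalized separately, every level set across tissues below carries that limit. An FPKM is a share of its library, and the listed acinar genes took 0.803 to 1.53% of the summed FPKM of a kidney library, against 72.9 to 82.4% of a pancreas library. The kidney share includes Klk1, Spink3 and Gatm, which were abundant in kidney too. In the pancreas share Cela2a, Ctrb1 and Pnlip entered as 0, as they were listed at 0 in every pancreas library. Cela1 entered as 0 in replicate 1, Try4 in replicate 2, and Cpa1 and Prss2 in replicate 5. Replicate 5 had the lowest share, 72.9%, so no lower acinar share is read from it. The most abundant single gene as listed was Kap in every kidney library and Prss2 in pancreas replicates 1 to 4. In pancreas replicate 5 it was Clps, but Prss2 was listed at 0 there, so no change of top gene is read from it. At 1 FPKM or more, 11506 to 12409 genes were found in a kidney library and 6582 to 9835 in a pancreas library. Each comparison was therefore made on log2(FPKM + 1) as deposited and again with median-of-ratios scaling, in which a library is divided by the median, over genes, of its FPKM relative to the geometric mean of all 10.

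Of 18862 genes present in both tables, 11570 reached 1 FPKM in at least 5 of the 10 libraries and were tested with limma, at a Benjamini-Hochberg adjusted p under 0.05. As deposited, 10958 genes passed (94.7%), of which 10528 were higher in kidney (91.0%) and 430 lower (3.72%), and the median log2 fold change of kidney over pancreas was 1.64. After scaling, 7527 passed (65.1%), 4266 higher in kidney (36.9%) and 3261 lower (28.2%), with a median of 0.08. The direction depended on the scale for 2315 genes, which were higher in kidney as deposited and lower when scaled. A gene is called higher or lower below only where it passed in both fits in the same direction, which left 4266 genes higher in kidney (36.9%) and 430 lower (3.72%). Of the tested genes, 2037 reached 1 FPKM in every kidney library and in no pancreas library and 120 the reverse. As deposited the values of these genes could not overlap, so their direction was fixed, while a call when scaled was not. Without them, 2786 genes were called higher in kidney and 310 lower. The 5 kidney and 5 pancreas values did not overlap for 10219 genes (88.3%), 9884 higher in kidney (85.4%) and 335 lower (2.90%). Over log2 5 in both fits, 119 genes were higher in kidney (1.03%) and 49 lower (0.424%). Counts of called or non-overlapping members in the lists below are to be read beside these shares of all tested genes.

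**Figure D1:**
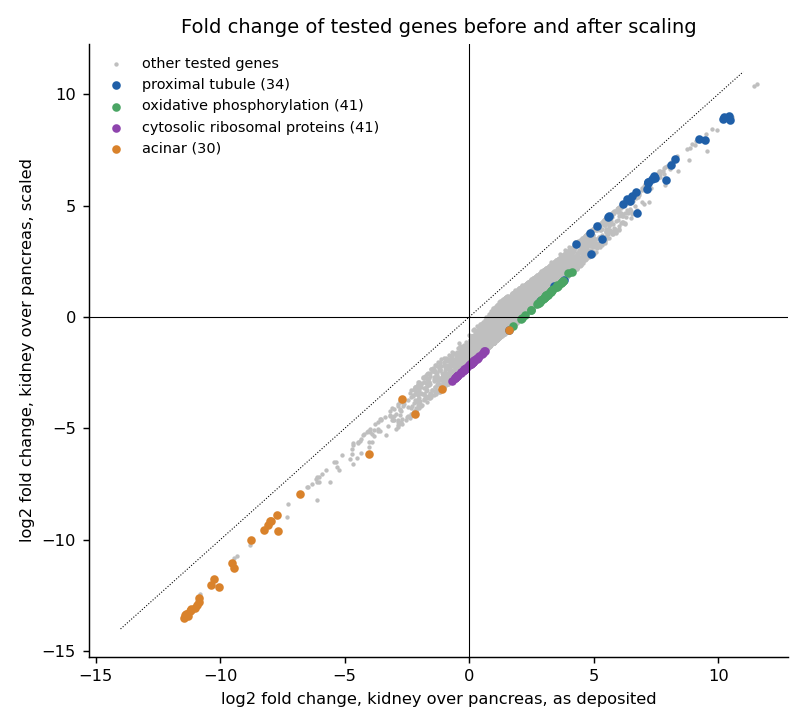
Log2 fold change of kidney over pancreas for each of the 11570 tested genes as deposited (horizontal axis) and after scaling (vertical axis), with 4 gene lists coloured and equal values on the dotted line. The cloud lies below the dotted line, cytosolic ribosomal proteins sit near 0 as deposited and near -2 when scaled, and the single acinar point close to the origin on the right is Gatm, which is also on the proximal tubule list.

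The tissue labels were first checked against markers of each part of the nephron. In the glomerulus, 12 of 13 tested podocyte genes were higher in kidney and none lower, with 7 of the 13 reaching 1 FPKM only in kidney. Podxl, the podocalyxin of the podocyte surface, had 47.5, 37.5, 33.6, 58.2 and 58.6 FPKM in kidney and 4.07, 2.92, 4.38, 6.11 and 5.71 FPKM in pancreas, without overlap, a log2 fold change of 3.09 as deposited and 1.11 when scaled. The single podocyte gene without a call was Nphs1, which encodes nephrin of the filtration slit. It had 4.87, 3.25, 3.46, 6.30 and 7.14 FPKM in kidney and 3.01, 3.28, 3.41, 3.37 and 5.10 FPKM in pancreas, and these values overlap. Its log2 fold change was 0.34 as deposited (adjusted p 0.117) and -1.39 when scaled, so its direction turned with the scale. Without kidney replicate 2 it passed as deposited, at log2 0.46 (adjusted p 0.0481).

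Proximal tubule genes stood far apart between the organs: 32 of 34 tested genes were higher in kidney and none lower, 19 of them through kidney libraries alone, and their median log2 fold change was 6.94 as deposited and 5.68 when scaled. Slc34a1, the sodium-phosphate cotransporter of the brush border, had 1645, 1526, 1751, 1235 and 1027 FPKM in kidney and 0.268, 0, 0, 0 and 1.19 FPKM in pancreas. Miox, which starts the breakdown of inositol, had 1861, 1473, 1925, 1938 and 1938 FPKM in kidney and 0.206, 0.208, 0.151, 0.116 and 1.25 FPKM in pancreas (log2 fold change 10.41 ± 0.19, SE, as deposited and 9.02 ± 0.24 when scaled). Both genes were at over 1000 FPKM in each kidney library and at 1.25 FPKM or less in each pancreas library, of which replicate 5 was the highest for each. The 2 proximal tubule genes without a call were Ggt1 and Gatm.

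Beyond the proximal tubule, 9 of 13 loop of Henle genes, 13 of 15 genes of the distal and connecting tubule, 11 of 12 principal cell genes and 15 of 15 intercalated cell genes were higher in kidney. Tested genes that reached 1 FPKM in kidney alone numbered 7 on the loop list, 7 on the distal list, 12 on the principal cell list and 14 on the intercalated cell list. Umod, which encodes uromodulin, the main protein of urine, had 1218, 1643, 1297, 1705 and 2436 FPKM in kidney and 0.456, 0.435, 0.251, 0.401 and 2.02 FPKM in pancreas. S100g, a calcium carrier of the distal tubule, averaged 1079 ± 224 FPKM in kidney (SD, n = 5) and had 0, 0.189, 1.79, 0.336 and 1.14 FPKM in pancreas. Aqp2, the water channel set by vasopressin, averaged 106 ± 36.98 FPKM in kidney and had 0.0647, 0, 0, 0 and 0.0536 FPKM in pancreas. Atp6v1b1, a subunit of the acid pump of intercalated cells, averaged 52.3 ± 12.8 FPKM in kidney and had 0, 0, 0.0362, 0 and 0.116 FPKM in pancreas. Every pancreas value of these 3 genes was under every kidney value. Ptger3, a prostaglandin E2 receptor on the loop list, overlapped between the organs, at 13.2, 22.7, 12.3, 18.1 and 28.9 FPKM in kidney and 20.4, 21.3, 15.02, 23.9 and 29.8 FPKM in pancreas. The one gene of these lists that was lower in kidney was Klk1 of the connecting tubule, described after the acinar genes.

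**Figure D2:**
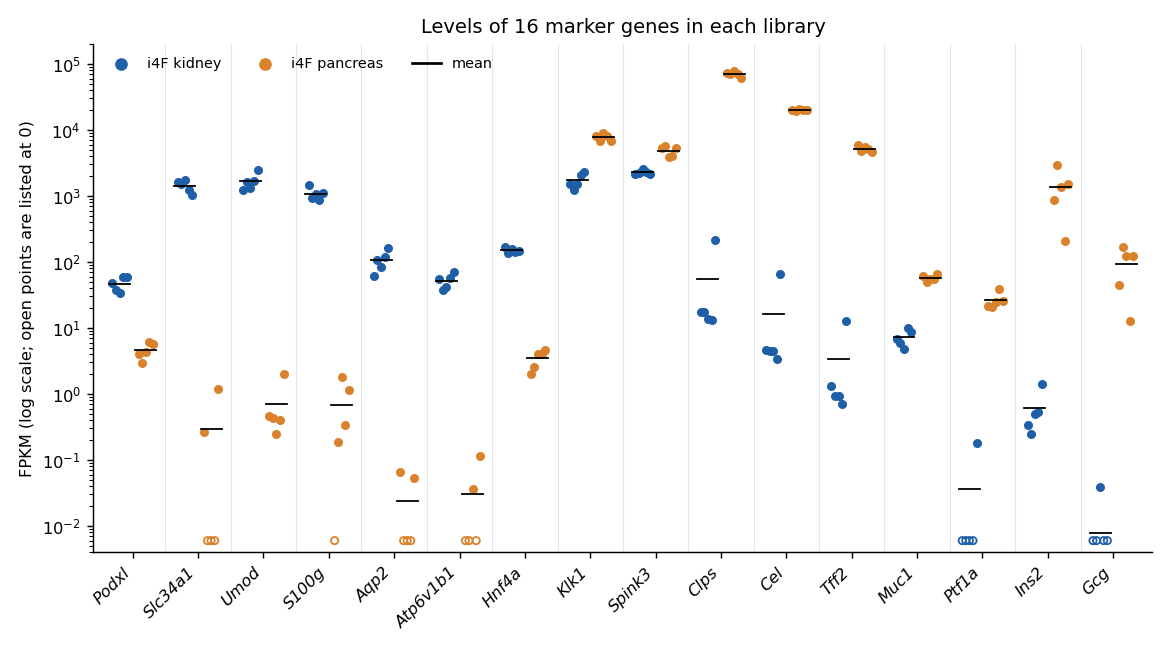
FPKM of 16 marker genes in each of 5 i4F kidney (blue) and 5 i4F pancreas libraries (orange), on a log scale, with open points for values listed at 0 and black lines at the means. Segment markers of the nephron stand on the left, Klk1 and Spink3, high in both organs, in the middle, and acinar, duct and islet genes on the right, where kidney replicate 5 is the highest kidney value for Clps, Cel and Tff2.

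Ranked by fold change as deposited, among called genes without overlap and present in both organs, the 10 largest rises in kidney included Fxyd2, Miox, Slc27a2, Slc34a1, Umod, Keg1, Gpx3, Akr1c21 and Napsa, at log2 10.57 to 9.49 as deposited and 7.45 to 9.02 when scaled. Fxyd2, the gamma subunit of the sodium pump, headed them with 3344, 3018, 3928, 2724 and 3313 FPKM in kidney and 0.952, 0.400, 0, 1.92 and 4.63 FPKM in pancreas. Gpx3, the secreted glutathione peroxidase that the kidney supplies to plasma, was the most abundant, at 12008 ± 1825 FPKM in kidney and 16.4 ± 8.81 FPKM in pancreas. Napsa, an aspartic protease, varied most within kidney among these 10 genes relative to its mean, with 873, 1471, 1802, 2454 and 2903 FPKM, against 0.563, 0.139, 0.251, 9.504 and 2.74 FPKM in pancreas. Kap, the kidney androgen-regulated protein, was higher still, with 41489, 60524, 76813, 16741 and 27795 FPKM in kidney, but it was listed at 0 in 3 pancreas libraries and was set aside from the tests.

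Transcription factors that shape the nephron followed the tubule genes. All 30 tested factors of the kidney list were higher in kidney, 24 of them through kidney libraries alone. Hnf4a, a nuclear receptor of proximal tubule, liver and gut, averaged 149 ± 12.0 FPKM in kidney and 3.46 ± 1.11 FPKM in pancreas. Maf, a leucine zipper factor, averaged 62.6 ± 15.3 FPKM in kidney and 1.48 ± 1.60 FPKM in pancreas. Pax8, a paired-box factor of the nephron, averaged 24.8 ± 3.25 FPKM in kidney and had 0, 0, 0, 0 and 0.0378 FPKM in pancreas. The Hox genes, which mark position along the body axis, were called higher in kidney for all 23 that were tested of 35 in the tables, and all 23 had reached 1 FPKM in kidney alone.

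Transport families were mostly higher in kidney. All 17 tested Slc22 genes, carriers of organic anions and cations, were higher in kidney, 13 through kidney alone. Slc22a6, the organic anion transporter OAT1, had 178, 227, 273, 70.9 and 95.2 FPKM in kidney, with replicates 4 and 5 lowest, and 0.0272, 0, 0, 0 and 0.229 FPKM in pancreas. Slc22a8, the related OAT3, had 152, 132, 153, 222 and 221 FPKM in kidney, with replicates 4 and 5 highest, and 0.0168, 0, 0, 0 and 0.0784 FPKM in pancreas. Over all genes named Slc and a number, 148 of 247 tested were higher in kidney and 18 lower. Of the 247, 88 had reached 1 FPKM in kidney alone and 4 in pancreas alone.

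Of 9 tested aquaporins, the water channels, 7 were higher in kidney and 2 lower, and 5 of the 9 were tested through kidney alone and 1 through pancreas alone. The higher ones included Aqp1 of the proximal tubule at 316 ± 29.0 FPKM in kidney and 10.1 ± 4.16 FPKM in pancreas. Aqp12 had 0.0586, 0.126, 0.0555, 0 and 0.801 FPKM in kidney and 267, 247, 223, 222 and 264 FPKM in pancreas, and Aqp8 averaged 0.691 ± 0.468 FPKM in kidney and 6.94 ± 3.12 FPKM in pancreas; both were lower in kidney. Of the claudins, which seal the spaces between cells, 9 of 14 were higher and 2 lower in kidney, with 5 of the 14 tested through kidney alone and 1 through pancreas alone. Cldn2, a pore-forming claudin of the proximal tubule, averaged 163 ± 9.73 FPKM in kidney and 0.147 ± 0.163 FPKM in pancreas. Cldn3 averaged 11.9 ± 2.199 FPKM in kidney and 23.9 ± 2.76 FPKM in pancreas. Cldn9 averaged 0.232 ± 0.0610 FPKM in kidney and 4.16 ± 0.711 FPKM in pancreas. Subunits of the vacuolar proton pump were higher in kidney for 18 of 22, 6 of them through kidney alone.

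Acinar genes made up the other pole. Of 30 tested, 29 were lower in kidney and none higher, against 3.72% lower among all tested genes, with a median log2 fold change of -9.79 as deposited and -11.50 when scaled; 5 reached 1 FPKM in pancreas alone. The 10 largest falls were Ctrl, Cela3b, Zg16, Rnase1, Clps, Cpb1, Cel, Sycn, 2210010C04Rik and Reg1, at log2 -11.46 to -11.01 as deposited and -13.50 to -13.02 when scaled. Clps, which encodes the colipase that anchors lipase to fat, had 17.5, 17.3, 13.8, 13.4 and 216 FPKM in kidney and 72321, 69326, 78363, 71081 and 60495 FPKM in pancreas. Cel, the bile salt-dependent lipase, had 4.63, 4.41, 4.50, 3.37 and 65.5 FPKM in kidney and 19861, 19180, 20906, 20113 and 19937 FPKM in pancreas. Reg1, a secreted protein of the regenerating family, had 8.84, 10.01, 13.99, 7.03 and 79.1 FPKM in kidney and 29400, 45682, 33602, 29983 and 29180 FPKM in pancreas. In each of these the kidney library of replicate 5 stood above the other 4 kidney libraries, and without it the fold change of all 10 was further from 0 by over 1.5 times, at log2 -12.06 for Clps, -11.91 for Cel and -11.60 for Reg1, against -11.31, -11.17 and -11.01 with it.

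The same library was high for acinar transcripts as a group, and pancreas replicate 5 was high for tubule transcripts. Over 25 acinar genes, the median level in kidney as a share of the pancreas mean was 0.0249%, 0.0240%, 0.0256%, 0.0191% and 0.288% in replicates 1 to 5. Over 37 tubule genes the median level in pancreas as a share of the kidney mean was 0.0305%, 0.0122%, 0.0132%, 0.0311% and 0.124%. With both replicate 5 libraries left out together, 4404 genes were called in both fits, against 4696 with them. The part of these transcripts in single low values was not tested.

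Another 7 pancreatic enzyme genes were not tested because they were listed at 0 in single or all libraries of an organ that otherwise reached 10000 FPKM or more in the series. Prss2, a trypsinogen, had 22.4, 20.3, 17.8, 15.6 and 213 FPKM in the kidney libraries and 98031, 90680, 85403, 80508 and 0 FPKM in the pancreas libraries. Cela2a, Ctrb1 and Pnlip, which encode an elastase, a chymotrypsinogen and pancreatic lipase, were listed at 0 in all 5 pancreas libraries and at 31.6, 31.0, 26.6, 21.8 and 372 FPKM for Cela2a in kidney. Cela1, Cpa1 and Try4 were listed at 0 in 1 pancreas library each. No change was read from these genes.

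Transcription factors of the pancreas were mostly lower in kidney. Ptf1a, the factor that specifies acinar cells, had 0, 0, 0, 0 and 0.180 FPKM in kidney and 21.2, 21.0, 24.9, 38.8 and 25.3 FPKM in pancreas. Its partner Rbpjl had 0.0197, 0.0203, 0.0188, 0 and 0.188 FPKM in kidney and 47.1, 40.7, 70.1, 54.7 and 70.2 FPKM in pancreas. Bhlha15 (Mist1), which builds the secretory apparatus, averaged 0.167 ± 0.155 FPKM in kidney and 47.9 ± 14.8 FPKM in pancreas. In all, 11 of 14 tested pancreas factors were lower in kidney, 9 through pancreas alone, and 2 were higher in kidney, among them Glis3 at 7.54 ± 2.49 FPKM in kidney and 0.240 ± 0.0905 FPKM in pancreas.

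The PTF1 complex binds an E-box and a TTTCCC box. The letters CANNTG, followed 5 or 15 bases later by TTTCCC, were searched on either strand of RefSeq promoters (GRCm38.p6, the mm10 assembly, 250 bases before to 50 after the start). They stood in 1 of 37 promoters that matched the 49 genes over log2 5 lower in kidney in both fits (0.424% of tested genes), that of Cel, and in 21 of 8307 tested genes with a matched promoter (0.253%). The Cel promoter (chr2:28563354-28563653, minus strand) is shown 5′ to 3′ on the gene's strand because it held the only match, with both boxes in capitals, TTTCCC as its reverse complement GGGAAA, beginning 86 bases before the start.
Cel: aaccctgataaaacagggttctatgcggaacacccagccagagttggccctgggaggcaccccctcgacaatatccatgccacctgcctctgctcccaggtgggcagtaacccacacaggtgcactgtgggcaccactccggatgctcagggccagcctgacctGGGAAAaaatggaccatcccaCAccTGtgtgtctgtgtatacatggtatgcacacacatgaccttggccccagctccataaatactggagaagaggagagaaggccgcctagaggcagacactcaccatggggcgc

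Klk1 and Spink3 were abundant in both organs. Klk1, a tissue kallikrein, had 1523, 1246, 1535, 2037 and 2326 FPKM in kidney and 8014, 6721, 8897, 8058 and 6825 FPKM in pancreas, and it was lower in kidney (log2 fold change -2.18 as deposited and -4.35 when scaled). Under quantile normalization that call was lost (log2 -0.52, adjusted p 0.313, limma). Spink3, a trypsin inhibitor, had 2153, 2228, 2555, 2283 and 2167 FPKM in kidney and 5358, 5721, 3898, 3984 and 5388 FPKM in pancreas (log2 -1.08 as deposited and -3.25 when scaled, with 1.26 under quantile normalization, where its direction turned, and with an adjusted p of 0.072 where all 30 libraries entered the fit). Reads of Klk1 may be shared with its close relatives in the kallikrein family, and how such reads were assigned is not given in the sources used here.

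Duct genes went both ways and islet genes were mostly lower in kidney. Of 11 tested duct genes, 6 were higher in kidney, among them Krt7, Spp1, Slc4a4, Car2 and Cldn4, and 3 lower (Tff2, Muc1 and Krt19). Of the 11, 2 were tested through kidney alone. The call of Cldn4 was lost under quantile normalization (adjusted p 0.0788). Of the 14 duct genes in the tables, 9 also stand on other lists. Car2, a carbonic anhydrase of both duct and collecting duct, averaged 193 ± 33.1 FPKM in kidney and 0.413 ± 0.234 FPKM in pancreas. Tff2, a trefoil peptide, had 1.32, 0.916, 0.940, 0.693 and 12.9 FPKM in kidney and 5993, 4798, 5559, 5070 and 4657 FPKM in pancreas, and Muc1, an epithelial mucin, averaged 7.24 ± 2.11 FPKM in kidney and 57.6 ± 6.18 FPKM in pancreas. Of 10 tested islet genes 8 were lower in kidney, 7 through pancreas alone. Ins2, an insulin gene, had 0.337, 0.247, 0.497, 0.539 and 1.44 FPKM in kidney and 852, 2893, 1365, 207 and 1534 FPKM in pancreas, and Gcg, the glucagon gene, 0, 0, 0.0393, 0 and 0 FPKM in kidney and 44.1, 169, 122, 12.9 and 121 FPKM in pancreas. Pancreas replicate 4 was lowest and replicate 2 highest for both hormones. The islet gene higher in kidney was Slc2a2, a glucose transporter of beta cells, liver and proximal tubule, at 54.2 ± 12.2 FPKM in kidney and 0.796 ± 0.552 FPKM in pancreas.

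Energy metabolism separated the organs next. Of 41 tested subunits of oxidative phosphorylation, 35 were higher in kidney and none lower (median log2 fold change 3.09 as deposited and 0.99 when scaled). Atp5b, the catalytic subunit of ATP synthase, averaged 1588 ± 111 FPKM in kidney and 123 ± 25.6 FPKM in pancreas. Of 34 genes of fatty acid oxidation and ketone use, 32 were higher in kidney, 9 through kidney alone, with Acadm, the medium-chain dehydrogenase, at 491 ± 85.2 FPKM in kidney and 5.46 ± 1.58 FPKM in pancreas and Oxct1, which activates ketone bodies, at 358 ± 20.9 FPKM in kidney and 6.57 ± 1.82 FPKM in pancreas. Of 26 peroxisome genes, 20 were higher in kidney, and 4 of the 26 were tested through kidney alone. Cat (catalase) averaged 362 ± 48.8 FPKM in kidney and 8.38 ± 2.99 FPKM in pancreas. No gene of the fatty acid, peroxisome or oxidative phosphorylation lists was lower in kidney in both fits.

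Isoenzymes of glucose metabolism divided between the organs. Of 13 genes of gluconeogenesis and fructose use, 12 were higher in kidney, 6 through kidney alone, and 1 was lower. Pck1, the cytosolic phosphoenolpyruvate carboxykinase, had 203, 459, 499, 455 and 503 FPKM in kidney and 0.138, 0, 0, 3.27 and 0.415 FPKM in pancreas, while Pck2, its mitochondrial counterpart, had 4.45, 4.44, 4.45, 6.26 and 5.22 FPKM in kidney and 16.9, 13.4, 19.2, 16.05 and 18.8 FPKM in pancreas. In glycolysis 17 of 18 genes were higher in kidney and 1 lower, with 1 tested through kidney alone and 1 through pancreas alone. Hk1, the common hexokinase, averaged 26.9 ± 6.78 FPKM in kidney and 1.16 ± 0.805 FPKM in pancreas. Ldhb, the lactate dehydrogenase subunit of oxidative tissues, had 985, 822, 1068, 1007 and 978 FPKM in kidney and 2.73, 2.01, 2.71, 4.94 and 4.03 FPKM in pancreas.

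Serine and glycine metabolism was split within one list, with 7 of 20 tested genes higher in kidney, 8 lower and 5 without a call. Of the 20, 1 was tested through kidney alone and 1 through pancreas alone. Among all tested genes 36.9% were higher and 3.72% lower, so the share higher was near that of all genes. Gldc and Amt of the glycine cleavage system were higher in kidney. Gldc, its decarboxylase, averaged 26.9 ± 9.36 FPKM in kidney and had 0, 0.0135, 0.0147, 0 and 0.0362 FPKM in pancreas, so it was tested through kidney alone. Amt, its aminomethyltransferase, averaged 41.0 ± 4.18 FPKM in kidney and 1.81 ± 0.402 FPKM in pancreas. Gnmt, glycine N-methyltransferase, was lower in kidney. Among genes of synthesis that were lower in kidney, Phgdh, the first enzyme of serine synthesis, averaged 6.98 ± 2.47 FPKM in kidney and 76.9 ± 9.04 FPKM in pancreas, and Asns, asparagine synthetase, 3.30 ± 0.809 FPKM in kidney and 97.7 ± 18.6 FPKM in pancreas. The 2 steps of creatine synthesis also differed. Gamt, the second enzyme, had 14.2, 17.2, 24.4, 20.1 and 19.1 FPKM in kidney and 140.2, 121, 112, 129.8 and 139 FPKM in pancreas and was lower in kidney, while Gatm, the first, had 498, 276, 293, 416 and 320.4 FPKM in kidney and 96.9, 98.0, 78.9, 132 and 223 FPKM in pancreas, at log2 1.58 as deposited and -0.58 when scaled, where its direction turned.

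**Figure D3:**
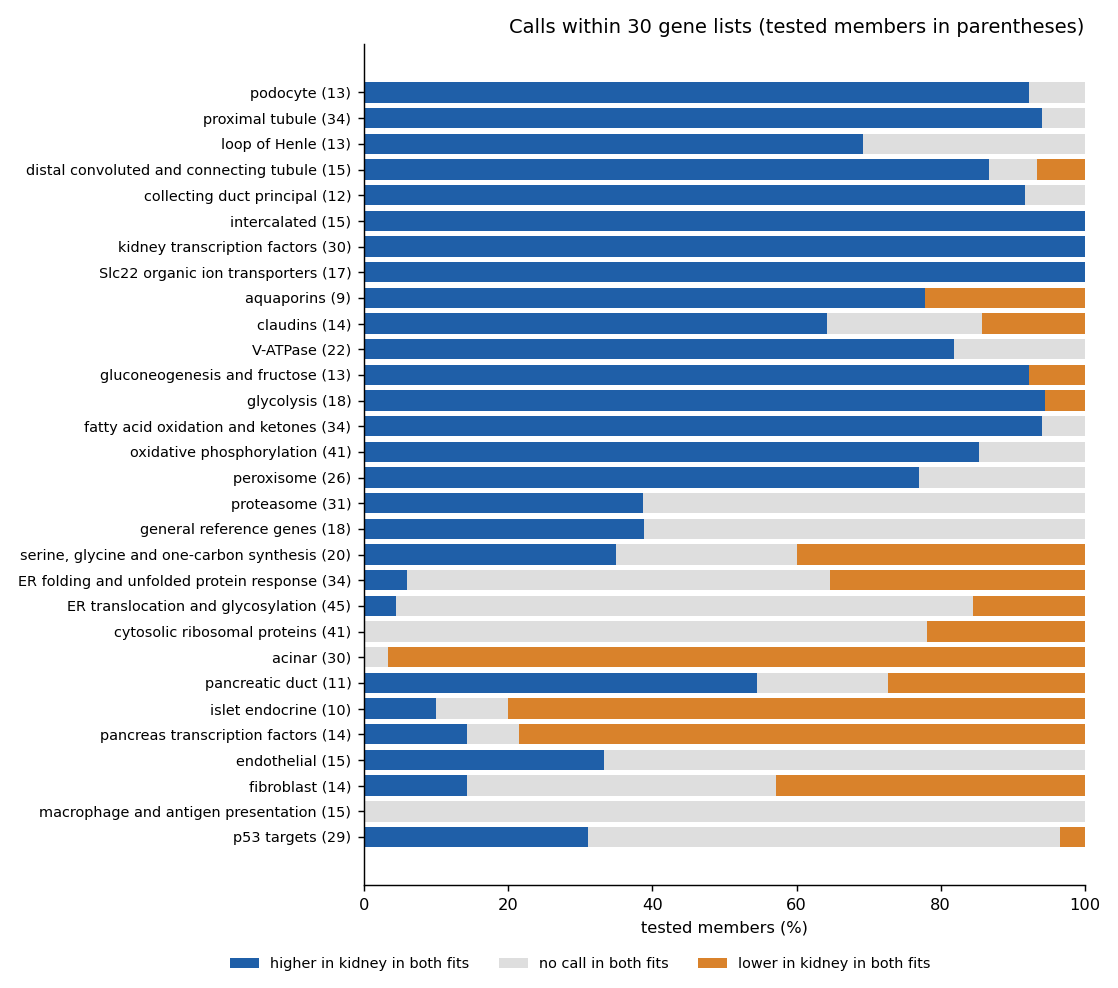
Share of tested members of 30 gene lists (horizontal axis, %) that were higher in kidney in both fits (blue), without a call in both fits (grey) or lower in kidney in both fits (orange). Nephron, transport and oxidative lists are mostly blue, acinar, islet and pancreas factor lists mostly orange, and secretory pathway, ribosomal and macrophage lists mostly grey. The fibroblast list is split, with as much orange as grey and a smaller blue part.

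The secretory pathway was not uniformly pancreatic. Of 34 tested genes of folding in the endoplasmic reticulum, 12 were lower in kidney, 2 were higher (Pdia3 and Canx) and 20 had no call; 13 were higher as deposited and 28 lower when scaled. The call of Canx was lost under quantile normalization (log2 0.17, adjusted p 0.215). Pdia2, a disulfide isomerase of the pancreas, had 0.368, 0.276, 0.162, 0.105 and 2.80 FPKM in kidney and 1179, 1047, 990.4, 1042 and 1148 FPKM in pancreas, whereas Pdia3, its general relative, averaged 174 ± 11.9 FPKM in kidney and 27.4 ± 15.1 FPKM in pancreas. Xbp1, the factor that expands the secretory apparatus, averaged 83.2 ± 21.4 FPKM in kidney and 160.0 ± 23.8 FPKM in pancreas, log2 -0.96 as deposited and -3.10 when scaled. Derl3, of the pathway that removes misfolded protein, averaged 0.727 ± 0.333 FPKM in kidney and 67.4 ± 13.8 FPKM in pancreas, and Fkbp11, a prolyl isomerase of secretory cells, 5.82 ± 1.37 FPKM in kidney and 173 ± 23.0 FPKM in pancreas. Of 45 genes of translocation and glycosylation 7 were lower in kidney and 2 higher (Sec11a and Sar1b). The call of Sec11a was lost under quantile normalization (log2 0.34, adjusted p 0.0692). The most abundant of the 7 in pancreas, Tmed6, a cargo receptor, averaged 22.4 ± 5.56 FPKM in kidney and 376 ± 18.4 FPKM in pancreas.

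Cytosolic ribosomal proteins depended on the scale. None of 41 was higher in kidney in both fits and 9 were lower; as deposited 5 were higher and 9 lower, and when scaled all 41 were lower. Rplp1, a stalk protein of the large subunit, averaged 1342 ± 121 FPKM in kidney and 2017 ± 290.4 FPKM in pancreas. Its call was lost under quantile normalization (log2 -0.22, adjusted p 0.311). Proteasome subunits were higher in kidney as deposited for 31 of 31 and in both fits for 12. Of 18 genes often used as references, 7 were higher in kidney in both fits. Both lists were near the shares of all tested genes, 91.0% higher as deposited for the proteasome and 36.9% in both fits for each. Gapdh averaged 605 ± 87.3 FPKM in kidney and 27.3 ± 9.46 FPKM in pancreas (log2 4.47 as deposited and 2.33 when scaled), and Eef1a1, an elongation factor, 2044 ± 197 FPKM in kidney and 1447 ± 319 FPKM in pancreas, at log2 0.52 as deposited and -1.64 when scaled, with its direction turned. Tpt1, a growth-related protein, averaged 1797 ± 238 FPKM in kidney and 1964 ± 259 FPKM in pancreas, which did not pass as deposited (log2 -0.13, adjusted p 0.395) and was at log2 -2.29 when scaled and 1.33 under quantile normalization.

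Genes of stroma and immune cells mostly lost their call between the scales. All 15 endothelial genes were higher in kidney as deposited and 5 in both fits (Tek, Emcn, Eng, Ehd3 and Cldn5). Among all tested genes 91.0% were higher as deposited and 36.9% in both fits, so these counts do not set the list apart. Of the 15, 1 was tested through kidney alone. Eng lost its call under quantile normalization (log2 0.36, adjusted p 0.132). Emcn, endomucin, averaged 47.2 ± 7.13 FPKM in kidney and 3.63 ± 0.629 FPKM in pancreas. Of 7 smooth muscle genes 4 were higher in both fits (Acta2, Tagln, Mylk and Ren1), and 1 of the 7 was tested through kidney alone. Ren1, renin of the juxtaglomerular cells, had 123, 38.0, 39.9, 57.3 and 132 FPKM in kidney and 0, 0, 0, 0 and 0.125 FPKM in pancreas. Fibroblast genes went both ways, with 6 of 14 lower in kidney and 2 higher (Tcf21 and Pdgfrb), and 1 of the 14 was tested through kidney alone. Gsn, gelsolin, averaged 39.7 ± 11.7 FPKM in kidney and 76.0 ± 29.8 FPKM in pancreas and was lower, with values that overlapped.

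None of 15 macrophage and antigen presentation genes was called in both fits: 8 were higher in kidney as deposited and 7 lower when scaled. Cd74, the invariant chain of class II molecules, had 275, 242, 236, 276 and 265 FPKM in kidney and 28.1, 25.2, 38.8, 403 and 84.2 FPKM in pancreas, at log2 2.03 as deposited and -0.12 when scaled, so its direction turned. Pancreas replicate 4 stood above the other 4 pancreas libraries for Cd74, for Cd79a of B cells (0.521, 0.849, 0.335, 1.16 and 0.810 FPKM in kidney, 0.145, 0.388, 0.158, 34.0 and 0.221 FPKM in pancreas), for S100a8 of neutrophils (10.9, 10.6, 7.04, 14.1 and 8.59 FPKM in kidney, 1.06, 0.257, 0.831, 136 and 1.45 FPKM in pancreas) and for Cfd of adipocytes (3.08, 3.58, 0.964, 38.7 and 0.481 FPKM in kidney, 0.0879, 0.614, 0.291, 168 and 0.0668 FPKM in pancreas). The summed level of the lymphocyte list was 6.49 to 10.8 FPKM in kidney and 0.521 to 105 FPKM in pancreas, that of the neutrophil list 14.3 to 25.8 FPKM in kidney and 2.15 to 264 FPKM in pancreas, and that of the adipocyte list 217 to 383 FPKM in kidney and 25.2 to 519.8 FPKM in pancreas. Without pancreas replicate 4 the log2 fold change was 2.69 for Cd74 and 2.57 for S100a8 as deposited, against 2.03 and 1.33 with it. None of the 14 lymphocyte genes and 2 of 12 neutrophil genes reached the level for testing.

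None of the 4 induced factors was called in both fits, and FPKM per gene do not tell the cassette from the endogenous genes. Pou5f1 had 0.151, 0, 0.0417, 5.40 and 1.25 FPKM in kidney and 0.236, 0, 0.832, 1.14 and 1.13 FPKM in pancreas, and Sox2 0.0945, 0.0194, 0.0176, 2.29 and 0.491 FPKM in kidney and 0.0509, 0, 0.202, 0.167 and 0.366 FPKM in pancreas. Both were under the level for limma and were compared by a two-sided exact permutation test, with adjusted p = 0.881 for each over the 5 genes so tested, at log2 0.15 for Pou5f1 and 0.29 for Sox2. Both directions turned after scaling (log2 -0.53 and -0.07, exact permutation test, adjusted p = 0.503 and 0.794). Klf4 had 2.40, 1.92, 2.58, 7.05 and 4.13 FPKM in kidney and 1.105, 1.07, 2.61, 3.27 and 2.19 FPKM in pancreas, log2 0.55 as deposited (adjusted p 0.0753) and -0.95 when scaled, so that its direction turned. It passed as deposited without kidney replicate 2 (adjusted p 0.0365) and without pancreas replicate 4 (adjusted p 0.0324), at log2 0.69 in each case. It also passed with Xist as a covariate (log2 0.54, adjusted p 0.00231) and with the replicate block (log2 0.55, adjusted p 0.00466). Myc had 1.73, 1.63, 1.63, 11.2 and 5.35 FPKM in kidney and 3.99, 3.82, 6.74, 11.1 and 6.86 FPKM in pancreas, log2 -0.72 as deposited (adjusted p 0.112) and -2.40 when scaled (adjusted p 1.75e-05). As deposited Myc passed without kidney replicate 4 (log2 -1.09, adjusted p 0.0054), with library weights (log2 -1.08, adjusted p 0.00318), with Xist as a covariate (log2 -0.73, adjusted p 0.00154) and with the replicate block (log2 -0.72, adjusted p 0.00702). The replicate block joins libraries that no label ties to one mouse, and Xist was high in the libraries with the most of the factors. Passing in those fits is therefore not read as support for a difference in Klf4 or Myc. All 4 factors were higher in replicates 4 and 5 than in replicates 1 to 3 of kidney, and higher in replicates 3 to 5 than in replicates 1 and 2 of pancreas.

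**Figure D4:**
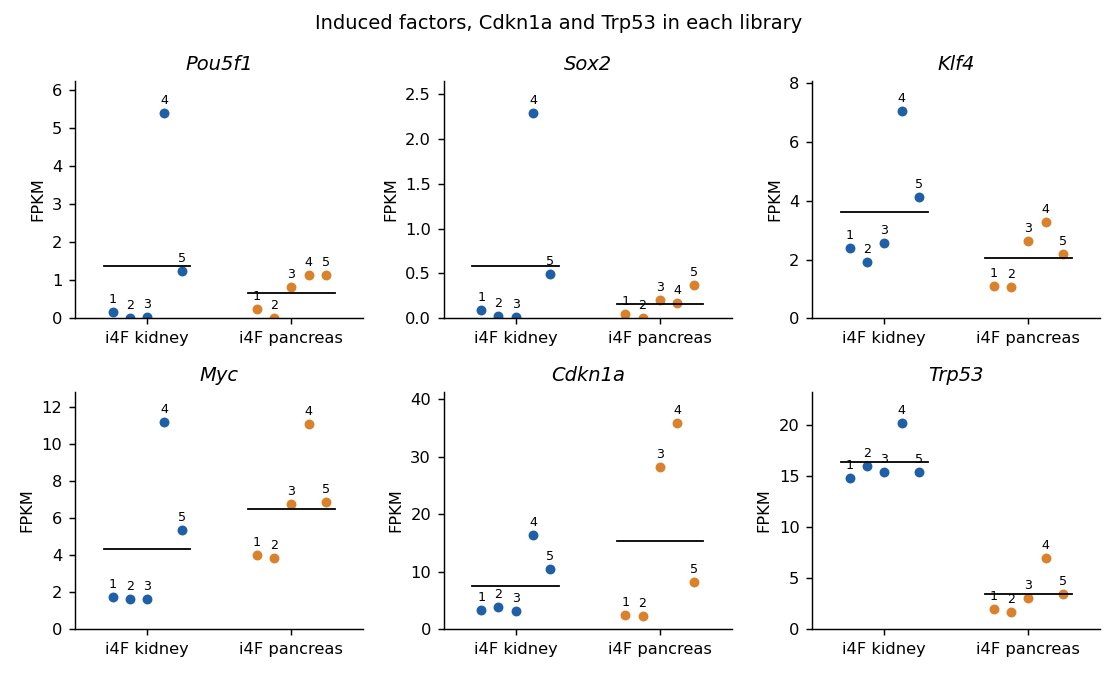
FPKM of the 4 induced factors, Cdkn1a and Trp53 in each i4F kidney library (blue, left in each panel) and i4F pancreas library (orange, right), with replicate numbers above the points and black lines at the means. Within an organ the same libraries are high for the factors and for Cdkn1a, while the 5 kidney values of Trp53 all lie above the 5 pancreas values.

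Few other pluripotency genes reached the level for testing. Nanog was at 0.0960, 0.102, 0.216, 0.204 and 0.225 FPKM in kidney and 0.0445, 0, 0, 0.0404 and 0 FPKM in pancreas, without overlap, as for 85.4% of all tested genes (exact permutation test, two-sided p = 0.00794, the smallest possible, adjusted p = 0.0397), at no more than 0.225 FPKM in any library. After scaling Nanog did not pass (log2 0.06, exact permutation test, adjusted p = 0.357). Of 24 listed genes 5 were tested, 1 through kidney alone and 1 through pancreas alone. Esrrb and Tfcp2l1, which are also expressed in renal tubules, were higher in kidney, Tfcp2l1 at 35.3 ± 9.44 FPKM in kidney and 0.595 ± 0.322 FPKM in pancreas, and Nr5a2 and Tdh were lower, Nr5a2, also an acinar factor, at 0.0611 ± 0.0259 FPKM in kidney and 4.001 ± 1.48 FPKM in pancreas. Il6, a cytokine tied to reprogramming in vivo, had 0.147, 0.0807, 0.105, 0.153 and 0.0373 FPKM in kidney and 0, 0, 0, 0.0406 and 0 FPKM in pancreas (exact permutation test, two-sided p = 0.0159, adjusted p = 0.0397), again at very low levels. It did not pass after scaling (log2 0.05, exact permutation test, adjusted p = 0.119).

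No tumour suppressor was deleted in the i4F mice, per the labels. Trp53, which encodes p53, had 14.8, 15.99, 15.4, 20.3 and 15.5 FPKM in kidney and 1.94, 1.64, 3.01, 6.99 and 3.44 FPKM in pancreas, without overlap as deposited (log2 2.09) but at log2 0.25 when scaled (adjusted p 0.136) and 0.12 under quantile normalization (adjusted p 0.486). Cdkn1a, the p21 inhibitor that p53 induces, had 3.37, 3.80, 3.11, 16.3 and 10.4 FPKM in kidney and 2.34, 2.18, 28.3, 35.9 and 8.10 FPKM in pancreas, log2 -0.52 as deposited (adjusted p 0.464) and -2.31 when scaled (adjusted p 0.0053). With library weights it passed as deposited (log2 -2.01, adjusted p 0.00117). Its high libraries, replicates 4 and 5 in kidney and 3 to 5 in pancreas, were those with the most of the induced factors. Cdkn2a, which encodes p16 and Arf, was at 0, 0.0746, 0, 0.0782 and 0.0608 FPKM in kidney and 0, 0, 0, 0.318 and 0.0684 FPKM in pancreas (exact permutation test, adjusted p = 0.881). Of 29 p53 target genes 9 were higher in kidney in both fits, 1 was lower and 19 had no call, beside 36.9% higher and 3.72% lower among all tested genes. Of the 29, 5 were tested through kidney alone. Plk2, the one lower, averaged 3.72 ± 0.392 FPKM in kidney and 11.1 ± 4.91 FPKM in pancreas, and Dcxr, a metabolic enzyme, was the most abundant of the higher ones at 140.0 ± 21.9 FPKM in kidney and 10.9 ± 1.84 FPKM in pancreas.

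Of 14 tested senescence-associated secreted factors 6 were higher in kidney and 1 lower, and of 18 kidney injury genes 5 were higher and 2 lower, beside 36.9% higher and 3.72% lower among all tested genes. Igfbp7, a binding protein of insulin-like growth factors, averaged 1436 ± 317 FPKM in kidney and 47.6 ± 34.3 FPKM in pancreas. Ccl8, a chemokine, was lower, with 1.11, 0.636, 0.117, 1.40 and 0.953 FPKM in kidney and 1.08, 0.705, 1.88, 34.3 and 15.2 FPKM in pancreas (log2 -1.67, adjusted p 0.0374). The call was lost without kidney replicate 2, 3 or 5 or pancreas replicate 4 or 5, where the adjusted p was 0.0609, 0.0792, 0.0511, 0.0847 and 0.101. The kidney injury genes higher in kidney were Spp1, Hmox1, Cyr61, Ctgf and Icam1, and those lower were Clu and Krt18. The call of Clu was lost where all 30 libraries entered the fit (adjusted p 0.064). Spp1, osteopontin, had 805, 362, 351, 1774 and 1546 FPKM in kidney and 31.1, 25.4, 47.6, 64.0 and 65.3 FPKM in pancreas. Of 16 genes of acinar stress 10 were lower in kidney and 3 higher, and 2 of the 16 were tested through kidney alone. Nupr1, a stress-induced nuclear protein, had 14.05, 17.5, 9.74, 15.2 and 25.1 FPKM in kidney and 1570, 1872, 1287, 1134 and 485 FPKM in pancreas, and Reg3b, a secreted lectin, 6.40, 5.58, 9.67, 5.13 and 5.38 FPKM in kidney and 2677, 658, 561, 1709 and 4108 FPKM in pancreas. Of the 29 mitosis genes present, 3 reached the level for testing, and none was called in both fits.

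Kidney libraries differed among themselves in a shared pattern. Xist, the RNA of the inactive X chromosome, had 0.0130, 0.0255, 0.0179, 26.6 and 20.9 FPKM in kidney and 0.0118, 0.00463, 5.44, 7.16 and 9.15 FPKM in pancreas, and Ddx3y, a gene of the Y chromosome, 9.22, 8.45, 5.03, 0.0231 and 0.0824 FPKM in kidney and 0.942, 0.872, 0.00714, 0.00756 and 0.0185 FPKM in pancreas. Genes known to depend on sex in mouse kidney moved with it: Cyp4b1 had 1640, 1905, 2168, 114 and 108 FPKM in kidney and 0.884, 0.826, 0.956, 2.85 and 2.96 FPKM in pancreas, and Acsm3 174, 319.6, 288, 1.35 and 4.67 FPKM in kidney and 0.101, 0.0836, 0.0721, 0.196 and 0.486 FPKM in pancreas, with replicates 1 to 3 high in kidney. Hao2, a peroxisomal hydroxyacid oxidase, had 160.4, 115, 106, 589 and 568 FPKM in kidney and 0.0212, 0, 0, 0 and 0.181 FPKM in pancreas, and Slc7a12, an amino acid transporter, 5.14, 2.77, 1.26, 214 and 219.7 FPKM in kidney and 0, 0, 0, 0 and 0.0407 FPKM in pancreas, with replicates 4 and 5 high in kidney. Single kidney libraries moved the fold changes of such genes: as deposited, leaving out 1 kidney library at a time gave log2 4.60 to 6.38 for Acsm3, 3.35 to 5.01 for Slc7a12 and up to 8.54 for Cyp4b1, against 5.30, 4.24 and 7.92 with all 5. All 8 tested genes of the sex-dependent list were higher in kidney than in pancreas in both fits, 6 of them tested through kidney alone. The libraries with high Xist were also those with the most of the induced factors in each organ, and the part of either in the differences within an organ was not tested.

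**Figure D5:**
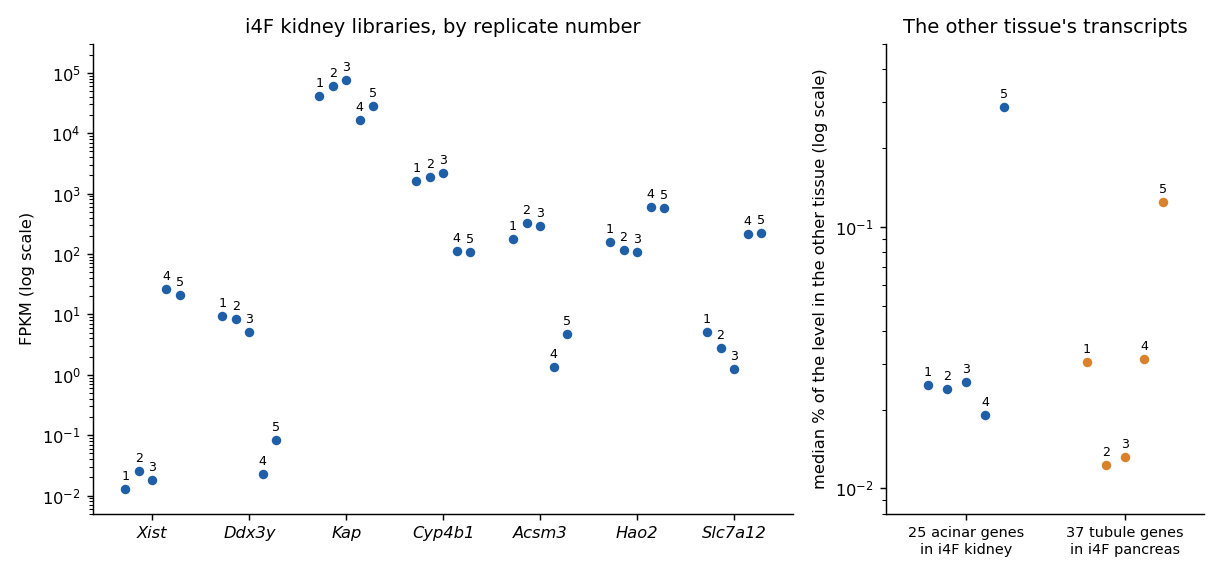
Left, FPKM (log scale) of Xist, Ddx3y and 5 sex-dependent genes in the 5 i4F kidney libraries, marked by replicate number: replicates 4 and 5 stand apart from replicates 1 to 3 for each gene. Right, median level of 25 acinar genes in i4F kidney and 37 tubule genes in i4F pancreas, as a percentage of their mean level in the other organ (log scale): replicate 5 is highest in both.

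The tissue difference recurred in the i4F Ink4a/Arf KO mice, which share no library with the i4F mice. Of 11579 genes tested there, 4637 were higher in kidney in both fits (40.0%) and 481 lower (4.15%). Among 11352 genes tested in both sets, 3841 were higher in both, 91.3% of the i4F calls and 84.4% of the i4F Ink4a/Arf KO calls, and 381 were lower in both, 93.6% of the i4F calls and 83.6% of the i4F Ink4a/Arf KO calls, with 0 called in opposite directions. As deposited, Umod was at log2 9.96 in the i4F mice and 10.07 in the i4F Ink4a/Arf KO mice, and Cel at -11.17 in the i4F mice and -13.45 in the i4F Ink4a/Arf KO mice. A test of whether the tissue difference itself differed between i4F and i4F Ink4a/Arf KO mice over 20 libraries called 0 of 12351 genes as deposited and 0 when scaled (0.00% each). At an unadjusted p under 0.05 there were 467 genes as deposited and 1053 when scaled, and with weights for library quality 85 genes passed as deposited, none of them in both fits.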

How the data were processed

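Cufflinks 2.2.1, TopHat2 2.0.10, SAMtools 0.1.19, Bowtie 1.0.0 and FastQC, with the mm10 build, appear in the submitters' processing notes, without saying which made the values. The FPKM were deposited by the authors in 1 table per tissue, with no counts, so the depth of a library is unknown, and low pancreas values held no steps from which whole reads could be recovered. Per the labels' protocols, libraries were stranded and made from poly(A) RNA.

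The tables were joined on gene name, giving 18862 genes. Genes listed at 0 in any library beside 10000 FPKM or more elsewhere were set aside, 8 in all. limma 3.58.1 (R 4.3.3), with a trended variance, was fitted to log2(FPKM + 1) of genes at 1 FPKM or more in at least 5 of 10 libraries, with Benjamini-Hochberg adjustment and a threshold of 0.05, and fitted again after median-of-ratios scaling. On the log2(FPKM + 1) scale the change of low genes is understated. The interaction with genotype used 20 libraries. The fit was checked on simulated data. Genes under the filter were compared with two-sided exact permutation tests.

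Samples were grouped by their labels, and nothing in the labels ties a replicate number to one mouse across tissues, so p-values measure the spread between these libraries, which may be in part technical. The members and gene lists were chosen with earlier results of these data known. Named genes are fixed ones (the induced factors, Nanog, Trp53, Cdkn2a, Cdkn1a and Il6), the 10 largest changes in each direction, and the most abundant and the minority members of each list. Genes outside this rule, such as Slc22a6, were chosen after their values were seen. Cd74, Cd79a, S100a8 and Cfd fell under the rule, but were grouped as high in pancreas replicate 4 after their values were seen. The alternatives were other scalings, filters, a pseudocount of 0.1, kept zeros, a replicate block, library weights, robust variance, Xist as a covariate, all 30 libraries and libraries left out. The exact tests after scaling and the fit without both replicate 5 libraries were added after seeing the data. Some genes that the rule names are not reported here.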

Additional observations from a re-analysis of the deposited data

Results flagged for a closer look

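A highest or lowest value stood apart from the other 4 libraries of its group, by Dixon's test on the log2(FPKM + 1) scale, in 55 of 278 groups of 5 examined. Chance gives about 1 in 20 for genes picked without regard to their spread. Some of these genes were chosen after their values were seen, so the count cannot be set against that rate. The genes share libraries and are not independent, and no cause was tested.

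Kidney replicate 5 was the highest kidney library for the pancreatic transcripts given here. It had 216 FPKM of Clps, 119 of Ctrl, 83.3 of Cpb1, 79.2 of Reg1, 73.2 of Rnase1, 66.0 of Zg16, 65.5 of Cel, 65.5 of 2210010C04Rik, 60.4 of Sycn and 59.8 of Cela3b. Of the enzyme genes set aside it had 453 FPKM of Ctrb1, 372 of Cela2a, 213 of Prss2, 148 of Pnlip, 89.4 of Cpa1 and 40.3 of Try4. It also had 12.9 FPKM of Tff2, 2.80 of Pdia2, 0.801 of Aqp12, 0.188 of Rbpjl and 0.180 of Ptf1a.

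Pancreas replicate 5 was the highest pancreas library for the following kidney transcripts, with 2.02 FPKM of Umod, 1.495 of Slc27a2, 1.25 of Miox, 0.438 of Cldn2, 0.229 of Slc22a6, 0.181 of Hao2, 0.125 of Ren1, 0.0784 of Slc22a8, 0.0407 of Slc7a12 and 0.0378 of Pax8. It was also highest for Clu at 442 FPKM and Nphs1 at 5.10 FPKM. Pancreas replicate 4 was the highest for Cfd at 168 FPKM, S100a8 at 136, Cd79a at 34.0, Tagln at 8.99, Pck1 at 3.27, Mylk at 1.51, Ehd3 at 1.06, Cdkn2a at 0.318 and Il6 at 0.0406.

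Single pancreas libraries were listed at 0 FPKM for Cela1 (replicate 1), Try4 (replicate 2), and Cpa1 and Prss2 (replicate 5). Tpt1 was lowest in pancreas replicate 2, at 1512 FPKM. Among kidney libraries, replicate 1 was lowest for Aqp1 at 264 FPKM, Pck1 at 203, Pdia3 at 152 and Cldn3 at 8.20, and replicate 2 was lowest for Miox at 1473 FPKM. Kidney replicate 4 was highest for Krt18 at 20.4 FPKM and Trp53 at 20.3, and kidney replicate 3 for Gcg at 0.0393 FPKM.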

How the results depend on the processing

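Scaling moved the split between higher and lower genes, and the cause was not tested. In the i4F mice, where 10528 genes were higher in kidney and 430 lower as deposited, median-of-ratios scaling gave 4266 higher and 3261 lower and quantile normalization 3496 and 4388. In the i4F Ink4a/Arf KO mice scaling gave 4637 higher and 3690 lower and quantile normalization 3801 and 4644. With no filter, 759 genes were lower in kidney in the i4F mice (752 in both fits) and 738 in the i4F Ink4a/Arf KO mice (736 in both fits). With a filter of 5 FPKM, which tests fewer genes, 7010 were called in the i4F mice, 6760 higher and 250 lower (250 lower in both fits), and 7158 in the i4F Ink4a/Arf KO mice, 6845 higher and 313 lower (313 in both fits). Library weights took the interaction with genotype from 0 genes to 85, 43 higher and 42 lower. The difference of Pou5f1, at 0.15 on the log2 scale, turned to -0.17 with a pseudocount of 0.1. After scaling, an alternative chosen after seeing the data, it was -0.53, that of Sox2 turned to -0.07, and those of Nanog and Il6, at 0.06 and 0.05, no longer passed; the cause was not tested.

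Leaving out 1 library at a time gave 10839 to 11094 genes called in the i4F mice (10394 to 10691 higher, 394 to 469 lower) and 4405 to 4720 in both fits (4004 to 4317 higher, 394 to 469 lower). In the i4F Ink4a/Arf KO mice it gave 11110 to 11175 (10628 to 10717 higher, 455 to 500 lower), with 4885 to 5202 in both fits (4426 to 4713 higher, 455 to 500 lower), and for the interaction 0 to 0.

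Of 2718 values of the 124 named genes tested, 14 turned direction. With median-of-ratios scaling these were Eef1a1 at -1.64, Nphs1 at -1.39, Klf4 at -0.95, Gatm at -0.58, S100a8 at -0.22 and Cd74 at -0.12. With quantile normalization they were Nphs1 at -1.44, Klf4 at -1.06, S100a8 at -0.41, Gatm at -0.30, Cd74 at -0.07, Spink3 at 1.26 and Tpt1 at 1.33, and with library weights Ptger3 at 0.12. Another 20 lost their call, 21 gained one and 2663 kept direction and call.

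Same-numbered kidney and pancreas libraries correlated in their deviations from group means at 0.057, 0.056, 0.050, 0.216 and -0.020 for replicates 1 to 5, so the numbers were not taken to pair the mice. For replicate 3 the libraries were not from one mouse. Ddx3y was at 5.03 and Xist at 0.0179 FPKM in its kidney library, against 0.00714 and 5.44 FPKM in its pancreas library. Xist was high in kidney replicates 4 and 5 and in pancreas replicates 3 to 5, so the organs also differed in this make-up. With the replicate block 11088 genes were called, 10628 higher and 460 lower, with 4675 in both fits, and Klf4 and Myc passed (adjusted p 0.00466 and 0.00702, limma). FPKM without counts give no depth, so no limit for values listed at 0 can be stated.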

Other observations

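Aminoacyl-tRNA synthetases, which load amino acids onto transfer RNA, were mostly without a call: of 20 tested, 1 was higher in kidney in both fits, 2 were lower and 17 had no call, while 13 were higher as deposited and 18 lower when scaled. Wars, the tryptophan enzyme, had 14.2, 13.4, 14.6, 14.9 and 15.7 FPKM in kidney and 38.3, 31.8, 51.4, 67.3 and 49.6 FPKM in pancreas and was lower in kidney. Dars, the aspartate enzyme, had 33.8, 37.4, 33.5, 32.3 and 29.0 FPKM in kidney and 4.96, 3.75, 4.44, 7.90 and 8.27 FPKM in pancreas and was higher, but its call was lost under quantile normalization (log2 0.26, adjusted p 0.0648, limma). The values of both genes did not overlap between the organs.

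Of 8 tested genes of the p53 family and of cell cycle inhibitors, Cdkn1c alone was higher in kidney in both fits. Cdkn1c, which encodes p57 and marks podocytes, had 13.1, 8.37, 11.4, 16.7 and 20.7 FPKM in kidney and 1.29, 0.630, 0.584, 0.614 and 0.942 FPKM in pancreas. Both tested genes of the erythroid list were higher in kidney, but both were tested through kidney alone and 1 also stands on the intercalated cell list. Alas2, the red cell enzyme of haem synthesis, had 11.1, 5.74, 6.43, 10.3 and 7.52 FPKM in kidney and 0.782, 0.548, 0.506, 0.464 and 0.295 FPKM in pancreas. Lpl, lipoprotein lipase, was the one adipocyte list gene higher in kidney in both fits, at 185, 256, 253, 87.8 and 127 FPKM in kidney and 9.07, 10.5, 7.19, 19.6 and 7.55 FPKM in pancreas.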
